A study of Mus musculus with 4 samples.

Results

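The genes described here build and regulate the actin cytoskeleton of the osteoclast: the podosome core and its surrounding adhesion ring, and the sealing zone that podosomes assemble into on bone. They were a list of 47 gene symbols, looked up in the annotation of the array's probe sets. A gene was represented by a probe set named for that gene alone and, among several, by the brightest on average (mean of log2 values over 4 arrays). Of the 47 genes, 43 had such a probe set, out of 18193 named genes in all, and Arpc1b, Arpc3, Actr2 and Ptk2 were not analysed here. All 43 exceeded the floor, the median intensity of an array, on at least 1 array, and 39 did so on every array.

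Podosomes are small adhesion structures made of an actin core and a ring of adhesion proteins. The core grows by branched polymerisation through the Arp2/3 complex, switched on by WASP proteins under the GTPase Cdc42, and is bound by cortactin. Vinculin, talin, paxillin and zyxin form the ring that links actin to integrins. In osteoclasts, podosomes are packed into a belt, and on mineral into a sealing zone that encloses the space being resorbed. The tyrosine kinases Src and Pyk2 are known to be needed for this arrangement.

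The arrays followed cells of C57BL/6 mice, aged 8 to 10 weeks, through osteoclast formation in culture. Marrow cells given M-CSF at 100 ng/ml for 3 days were the bone marrow macrophages (BMM). Adding RANKL at 100 ng/ml, with M-CSF kept at 100 ng/ml, for 2 days gave mononuclear pre-osteoclasts (pOC), and keeping both cytokines for 2 more days produced multinucleated osteoclasts, on plastic (mOCp) or on dentin slices, which they resorb (mOCd). All 4 groups were exposed to M-CSF, and no array holds cells kept for the later days with M-CSF alone, so the effect of RANKL and that of the added days cannot be told apart. Each group was 1 array of bulk RNA, whose origin from 1 animal or several is not given in the sources used here, so no difference below has a replicate check or a p-value. In bulk RNA, fewer cells of a kind and less RNA per cell cannot be told apart.

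The deposited intensities had the same trimmed mean of 100.0 on every array. The floor was 12.7 for BMM, 14.5 for pOC, 14.8 for mOCp and 15.8 for mOCd, and the 75th percentile, called the bright limit here, lay between 77.8 and 87.0. Osteoclast markers fitted the labels: 10 of 10 exceeded the floor in pOC, mOCp and mOCd, with a summed intensity of 250.6 in BMM and 32519.8 to 51729.0 later. Macrophage markers summed to 26880.3 for BMM, 11052.3 for pOC, 19330.4 for mOCp and 16427.3 for mOCd. Neutrophil markers (8 with a probe set) summed to 323.5, 841.8, 1886.1 and 968.6 in the same order. Of 14 stromal, osteoblast and smooth muscle markers, 2, 5, 3 and 6 exceeded the floor, with Col1a1, Col3a1 and Tagln under it on every array and Dcn at 8.8, 196.1, 55.0 and 127.3. Of 7 B and T cell markers at most 2 exceeded the floor on an array, and of 5 endothelial markers 1, whereas the megakaryocyte list held Pf4, which read 1236.7 to 2370.0.

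Intensities below the floor were raised to it before ratios were taken. To be counted, a ratio had to reach 2-fold with its brighter value at or above the bright limit. If the dimmer value was at the floor, the true ratio may be larger, and it is given with the words "at least". Of the 43 genes, 24 were counted in at least 1 of 5 comparisons and 19 in none. The highest and lowest array of a gene lay under 2-fold apart for 17 genes and at least 10-fold apart for 7. These counts were not made over all named genes, so they describe the listed genes only and cannot be set against a background.

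**Figure D1:**
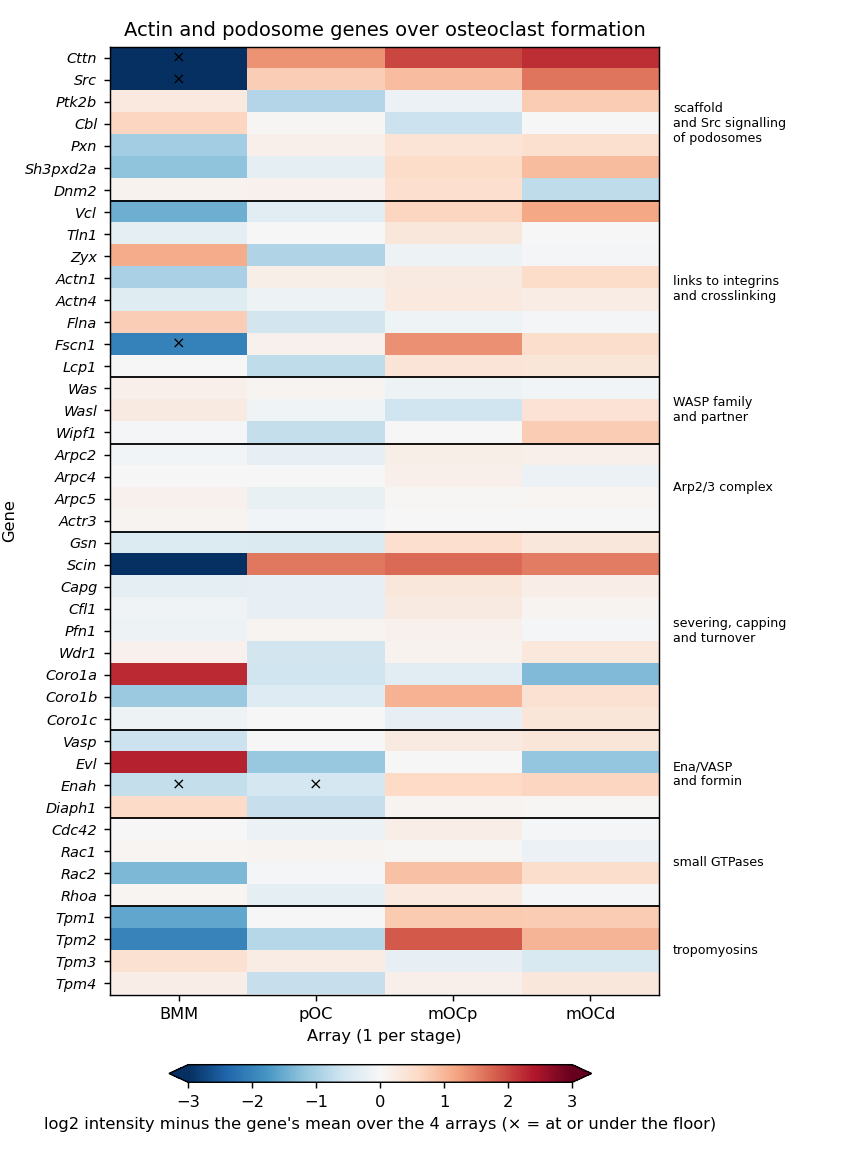
Heat map of the 43 genes (rows, ordered by role) on the 4 arrays (columns, 1 array per stage), coloured by log2 intensity minus the gene's mean over the arrays, with colours ending at −3 and 3. Cttn, Src and Scin are darkest in BMM, Coro1a and Evl are reddest in BMM, and the 4 Arp2/3 genes are pale throughout. Crosses mark values at or under the floor, which are Cttn, Src, Fscn1 and Enah in BMM and Enah in pOC.

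The comparison of pOC with BMM covers the first 2 days of RANKL. Of 40 genes bright enough to be counted, 8 were higher, where 11.1% of all named genes were, and 6 were lower, where 13.2% were. Cttn, Src and Scin, genes of the podosome core and of filament severing, rose by the largest ratios, and Evl and Coro1a, genes of filament elongation and of the leukocyte cortex, fell by the largest. The median log2 ratio of the 42 genes measured was −0.03, beside 0.09 for all named genes. Macrophage markers moved in the direction of the genes that fell, with 8 of 10 lower and none higher, and their part in those falls was not tested.

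From pOC to mOCp, 5 of 42 genes were higher, where 8.8% of all named genes were, and none was lower, where 11.4% were. The median log2 ratio was 0.43 beside 0.01 for all named genes, and 37 of 43 ratios lay above 0, beside 6129 of 12157. Bright markers of other cells moved the same way, with 4 of 6 macrophage markers and 3 of 4 neutrophil markers higher and none lower. Over all 10 macrophage markers measured, dim ones included, log2 ratios ran from −0.91 to 1.9 (median 0.99). Over the 8 neutrophil markers measured they ran from −1.47 to 1.6 (median 0.92). The part of these markers in the result was not tested. From pOC to mOCd, 7 of 40 listed genes were higher, with 10.8% of all named genes, and none lower, with 12.3%. There the median was 0.39 beside 0.01, and 33 of 43 ratios lay above 0, beside 6037 of 11900 for all named genes. Of 5 bright macrophage markers 0 were higher and 0 lower in mOCd (median −0.18 over all 10 measured). Of 4 bright neutrophil markers 1 was higher and 0 lower (median 0.07 over all 8 measured). When arrays were instead scaled on their bacterial spike-in controls, 3 of 40 listed genes were higher and 3 lower from pOC to mOCd. Of 7231 named genes 378 were higher and 1882 lower. The median of the listed genes was then −0.09, beside −0.46 for all named genes. Their ratios above 0 fell to 19 of 43, a count not made over all named genes. These 2 comparisons share the pOC array and are not independent.

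Between the final substrates few genes differed. In mOCd against mOCp, 1 of 42 genes was higher, where 2.15% of all named genes were, and 2 were lower, where 2.55% were. The median log2 ratio was −0.04 beside 0.01. With spike-in scaling 0 were higher and 5 lower, as all named genes counted lower went from 176 to 420. Leaving out probe sets with the suffix _a_at, _s_at or _x_at gave 0 of 32 higher and 0 lower, beside 151 and 152 of 5538 named genes. Over the whole course on plastic, mOCp against BMM, 12 of 42 genes were higher, where 16.9% of all named genes were, and 4 were lower, where 19.4% were, with a median of 0.28 beside 0.05. That comparison shares its arrays with the steps before it and adds no independent value.

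**Figure D2:**
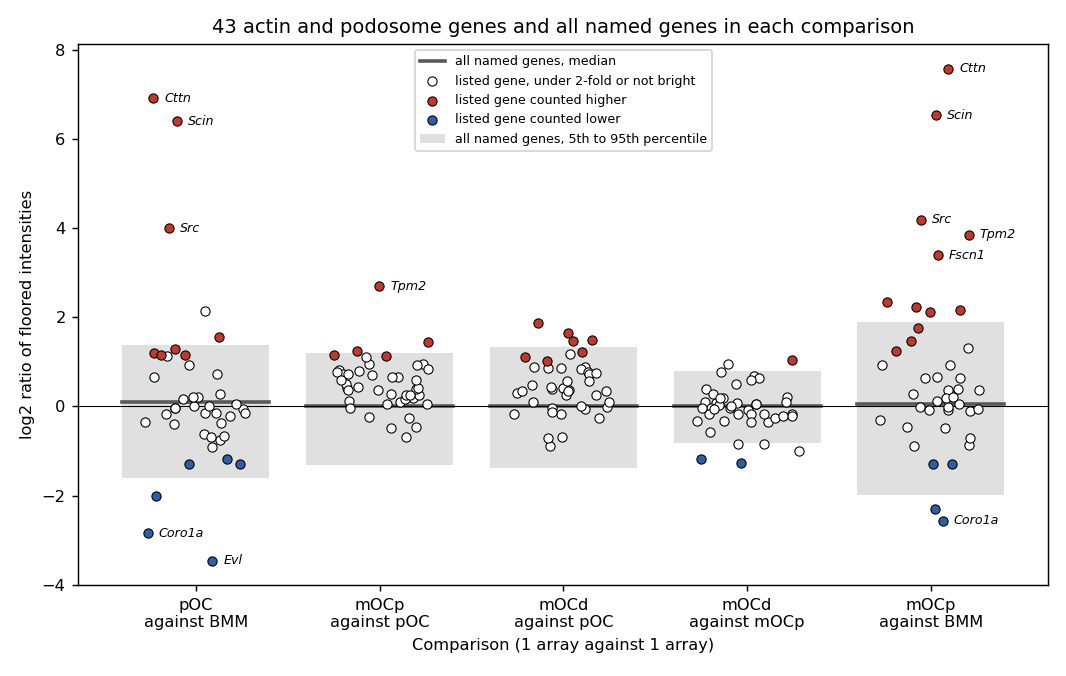
Log2 ratios of the 43 genes in 5 comparisons of 1 array with 1 array (points), over the range from the 5th to the 95th percentile of all named genes (grey) and their median (line). Red and blue points are genes counted as higher or lower. Cttn, Scin and Src stand far above the grey range in pOC against BMM, Coro1a and Evl below it, and in mOCd against mOCp the listed genes stay between −1.27 and 1.04.

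Without replicates, measurement error can be judged only from how far probe sets for 1 gene differ in their ratios. For this the 2 brightest probe sets of a gene were taken, if above the floor on both arrays (4514 to 4663 genes). The SD of the difference between their log2 ratios was divided by the square root of 2, to stand for 1 probe set. So scaled, it was 0.391 in pOC against BMM, 0.397 in mOCp against pOC and 0.504 in mOCd against pOC. It was 0.427 in mOCd against mOCp and 0.46 in mOCp against BMM. Over listed genes alone it was 0.427, 0.414, 0.508, 0.511 and 0.659 in the same order. This measure leaves out the spread between cultures and contains differences between transcripts. In pOC against BMM, 20 of 20 other probe sets of the counted genes pointed the same way, whereas in mOCp against pOC 6 of 8 and in mOCd against pOC 6 of 7 did. Some genes lay near the 2-fold limit, with Tpm4 in mOCd against pOC at 2.04-fold just inside it, and Coro1a in mOCd against mOCp at 1.99-fold and Vcl in mOCp against pOC at 1.95-fold just outside.

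Promoter sequence is shown for 6 of the 9 genes past 4-fold against BMM that had an entry, 4 that were higher in mOCp (Src, Scin, Vcl, Tpm1) and 2 that were lower (Evl, Zyx). They were chosen after the matches were seen, to show genes of different roles. Each line gives the 250 bases before the start of a RefSeq transcript in mouse assembly GRCm38.p6, on the gene's own strand. Capitals mark matches to any of the motifs searched on both strands: TGGAAA for NFAT, the transcription factor of osteoclast formation, TGANTCA for AP-1, GAGGAA for PU.1, CACGTG and CATGTG for MITF, and the CArG box of serum response factor. Src is at chr2:157424043-157424292 on the plus strand, Scin at chr12:40134229-40134478 on the minus strand, Vcl at chr14:20929148-20929397 on the plus strand, Tpm1 at chr9:67049214-67049463 on the minus strand, Evl at chr12:108554470-108554719 on the plus strand, and Zyx at chr6:42349578-42349827 on the plus strand.
Src: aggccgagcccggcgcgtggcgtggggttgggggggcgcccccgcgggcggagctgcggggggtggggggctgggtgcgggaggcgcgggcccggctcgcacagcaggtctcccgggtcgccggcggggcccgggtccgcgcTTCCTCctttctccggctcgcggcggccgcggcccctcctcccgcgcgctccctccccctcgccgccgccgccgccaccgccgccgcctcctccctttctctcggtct
Scin: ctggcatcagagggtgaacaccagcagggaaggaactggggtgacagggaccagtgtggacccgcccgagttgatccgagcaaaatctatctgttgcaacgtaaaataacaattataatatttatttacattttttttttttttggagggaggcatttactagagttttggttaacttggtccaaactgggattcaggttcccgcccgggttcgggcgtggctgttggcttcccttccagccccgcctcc
Vcl: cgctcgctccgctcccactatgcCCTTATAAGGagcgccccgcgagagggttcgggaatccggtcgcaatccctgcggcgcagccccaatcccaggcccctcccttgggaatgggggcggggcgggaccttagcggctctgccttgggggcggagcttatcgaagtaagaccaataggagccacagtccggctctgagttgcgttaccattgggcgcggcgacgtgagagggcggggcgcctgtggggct
Tpm1: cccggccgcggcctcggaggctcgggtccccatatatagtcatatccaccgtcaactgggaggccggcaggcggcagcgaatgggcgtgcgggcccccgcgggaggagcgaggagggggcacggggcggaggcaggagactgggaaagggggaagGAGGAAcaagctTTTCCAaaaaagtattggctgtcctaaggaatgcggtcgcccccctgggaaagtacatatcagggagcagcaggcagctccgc
Evl: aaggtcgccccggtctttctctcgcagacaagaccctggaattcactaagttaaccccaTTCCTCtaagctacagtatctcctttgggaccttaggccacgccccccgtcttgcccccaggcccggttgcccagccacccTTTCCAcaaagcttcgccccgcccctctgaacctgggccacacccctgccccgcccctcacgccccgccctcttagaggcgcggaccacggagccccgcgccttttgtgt
Zyx: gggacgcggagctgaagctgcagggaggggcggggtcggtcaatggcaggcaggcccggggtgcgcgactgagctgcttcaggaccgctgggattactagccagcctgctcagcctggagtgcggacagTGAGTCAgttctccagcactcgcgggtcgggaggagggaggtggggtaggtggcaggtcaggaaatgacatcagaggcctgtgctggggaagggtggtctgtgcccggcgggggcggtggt
The Src stretch holds a PU.1 core match that starts 108 bases before the transcript start, in a sequence of 82.8% G and C. Scin, at 49.2% G and C, holds none of the motifs. Vcl has a CArG box, CCTTATAAGG, 227 bases before its start. In Tpm1 a PU.1 core and an NFAT core match start 95 and 83 bases before the start, and Evl holds the same pair at 191 and 110 bases. Zyx has an AP-1 match, TGAGTCA, 121 bases before its start. Of the 3 not shown, Tpm2 holds a PU.1 core match 198 bases before its start, and Fscn1 and Coro1a hold none of the motifs.

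Matches to such short motifs are common. Over windows of 300 bases, 250 before and 50 after the start, the NFAT core was found in 21.4% of 32851 windows and in 7 of the 44 windows of 35 listed genes. The PU.1 core was found in 28.3% and in 13 of 44, AP-1 in 7.81% and in 2, CACGTG in 7.15% and in 1, and CATGTG in 14.2% and in 5. The CArG box, the rarest of them, was in 1.63% of all windows and in 2 of the 44, those of Vcl and Arpc4. A match describes the letters of the window and is not a binding site. Of the 12 genes past 4-fold against BMM in pOC or mOCp, 9 had a window; Cttn, Coro1b and Rac2 are named only.

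Scaffold and Src signalling genes held the largest rise, with 3 of 7 counted higher and 1 lower in pOC against BMM, where 11.1% and 13.2% of all named genes were. Cttn encodes cortactin, which binds the Arp2/3 complex in the podosome core, and its intensity was 10.1 for BMM, 1527.7 for pOC, 2435.5 for mOCp and 2802.9 for mOCd. It lay under the floor in BMM and was bright on each later array, at least 120.3-fold higher in pOC. The 3 other Cttn probe sets above the floor were also higher in pOC, with log2 ratios of 3.29 to 5.42, of which 1 within that range is a lower bound. Src, the tyrosine kinase whose loss leaves osteoclasts without a ruffled border, read 4.4, 203.4, 231.8 and 374.5 in the same order of arrays. It was at least 16.02-fold higher in pOC than in BMM, and its other probe set, also under the floor in BMM, was at least 9.34-fold higher.

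Pxn, encoding the adaptor paxillin, read 860.3 for BMM, 1972.3 for pOC, 2367.5 for mOCp and 2452.3 for mOCd. It rose 2.29-fold to pOC and stayed within 1.24-fold of pOC on both later arrays. Sh3pxd2a encodes Tks5, the Src substrate that anchors podosomes and invadopodia, and read 194.3, 371.5, 652.8 and 863.5. It was 1.91-fold higher in pOC, under the limit, and 2.32-fold higher in mOCd than in pOC, although its other, dim probe set gave a log2 ratio of 0.25 in the latter comparison.

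Ptk2b, which encodes the kinase Pyk2, had a different course, at 251.2 for BMM, 111.5 for pOC, 181.2 for mOCp and 349.0 for mOCd. It was lowest in pOC, 2.25-fold below BMM, and 3.13-fold higher in mOCd than in pOC. The other Ptk2b probe set was also lower in pOC (log2 ratio −0.90) but did not rise in mOCd (−0.02). Cbl, the ubiquitin ligase that acts with Src, read 479.2, 313.1, 194.4 and 301.6, and was 2.46-fold lower in mOCp than in BMM. Dnm2, the GTPase dynamin 2 found at podosomes, stood at 304.8, 307.6, 402.7 and 167.3. It was 2.41-fold lower in mOCd than in mOCp, and its 5 other probe sets were lower too, with log2 ratios of only −0.68 to −0.17.

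Genes that link actin to integrins or crosslink filaments split into those that rose and those that fell at the start. In pOC against BMM, 2 of 7 were higher and 2 lower, beside those same shares of 11.1% and 13.2%. Vcl, encoding vinculin, which reinforces the bond of talin with actin, read 258.2 for BMM, 575.0 for pOC, 1119.7 for mOCp and 1590.3 for mOCd. It was 2.23-fold higher in pOC than in BMM and 2.77-fold higher in mOCd than in pOC, and the other probe set gave log2 ratios of 0.74 and 0.33. Tln1, the integrin activator talin, read 926.1, 1117.2, 1430.8 and 1122.0 and was counted in no comparison. Actn1, encoding an alpha-actinin that bundles filaments, rose 2.21-fold to pOC, from 794.4 to 1759.0, and read 1889.2 in mOCp and 2299.6 in mOCd. Its relative Actn4 read 973.9, 1130.1, 1521.9 and 1448.7, with no ratio past the limit.

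Zyx, encoding zyxin, a protein of tension-bearing adhesions, was bright in BMM at 232.1 and fell 4.02-fold to 57.7 in pOC. It read 95.9 in mOCp and 103.4 in mOCd, still below BMM. Flna, the crosslinker filamin A, fell 2.44-fold, from 1648.7 in BMM to 676.2 in pOC, and read 901.9 in mOCp and 949.5 in mOCd. Lcp1, encoding L-plastin, the filament bundler of leukocytes, read 4982.5 for BMM, 2943.1 for pOC, 6505.0 for mOCp and 6329.0 for mOCd. Its lowest array was pOC, and it was 2.21-fold higher in mOCp and 2.15-fold higher in mOCd than there, with log2 ratios of 1.11 and 1.04 for its other probe set.

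Fscn1, the bundler fascin, was measured with less certainty. Its representative probe set read 0.5 for BMM, 55.9 for pOC, 132.8 for mOCp and 74.1 for mOCd, and was bright only in mOCp. It was 2.38-fold higher in mOCp than in pOC. The other probe sets above the floor did not share that rise, with log2 ratios of −0.33 and −0.01.

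Of the WASP family, which switches on the Arp2/3 complex, no gene was counted in pOC against BMM or in mOCp against pOC. Was, the family's member in blood cells, read 316.1 for BMM, 303.9 for pOC, 257.6 for mOCp and 269.7 for mOCd, a flat course. Wasl, which encodes N-WASP, the form found in most tissues, stood at 196.3, 150.0, 106.9 and 220.5. It was 2.06-fold higher in mOCd than in mOCp, and its 3 other probe sets had log2 ratios of 0.04 to 0.99. Wipf1, encoding WIP, which binds and stabilises WASP, read 769.5, 481.7, 795.6 and 1355.5. The lowest array of that probe set was pOC and its highest mOCd, 2.81-fold above pOC. The other Wipf1 probe set, also bright, read 465.8, 494.5, 614.5 and 850.5. It was lowest in BMM, and 1.72-fold higher in mOCd than in pOC.

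The Arp2/3 complex nucleates the branches of the actin network, and its 4 measured subunit genes varied little. Arpc2 read 4608.4 for BMM, 4168.7 for pOC, 5550.3 for mOCp and 5451.2 for mOCd. Arpc4 read 2159.8, 2122.5, 2371.3 and 1882.4, and Arpc5 read 3035.9, 2386.3, 2852.7 and 2866.9. Actr3, which encodes the actin-related subunit Arp3, stood at 3521.2, 3163.4, 3292.5 and 3362.2. None was counted in any comparison, and in pOC against BMM their log2 ratios ran from −0.35 to −0.03. That range lies within the disagreement between probe sets.

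Genes of filament severing, capping and turnover included the second largest rise and the second largest fall among the ratios of pOC to BMM, with 1 of 9 genes higher and 1 lower (all named genes, 11.1% and 13.2%). Scin encodes scinderin, also called adseverin, a calcium-dependent severing protein of the gelsolin family, and its 1 probe set read 13.4 for BMM, 1127.7 for pOC, 1237.4 for mOCp and 1102.6 for mOCd. It was just above the floor in BMM and 84.16-fold higher in pOC, and the later arrays stayed within 1.1-fold of pOC. Gsn, gelsolin itself, read 3900.5, 3819.4, 7398.5 and 6557.0. Its step came later, at 1.94-fold from pOC to mOCp, just under the limit, and its 4 other probe sets gave log2 ratios of 0.57 to 1.58 there. Capg, the capping protein of the same family, read 3173.6, 3311.1, 4998.6 and 4485.6 and was counted in no comparison.

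The coronins, which bind filaments and regulate their disassembly, moved in different directions. Coro1a, the form of leukocytes, read 3612.3 for BMM, 504.1 for pOC, 612.4 for mOCp and 307.5 for mOCd, and fell 7.17-fold to pOC. Its other bright probe set fell 7.4-fold, and a dim one, under the floor in pOC, at least 2.59-fold. Coro1b, the form of most tissues, read 360.0, 591.0, 1607.9 and 1073.2. It was 2.72-fold higher in mOCp than in pOC and was measured by 1 probe set. Coro1c read 620.1, 692.8, 582.0 and 884.8, with no ratio past the limit. The plot of related genes shows Coro1a and Coro1b apart on every later array, as ratios of each to its own value in BMM.

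Monomer and turnover factors were bright, and none of the 3 genes was counted in any comparison. Cfl1, encoding cofilin, which severs old filaments, read 5033.1 for BMM, 4540.7 for pOC, 6468.6 for mOCp and 5757.9 for mOCd. Pfn1, the monomer carrier profilin, read 4377.5, 5104.2, 5314.9 and 4695.7. Wdr1, a partner of cofilin, read 1808.5, 1144.3, 1792.5 and 2077.7 and was lowest in pOC. Its 2 other probe sets were also higher in mOCp than in pOC, with log2 ratios of 0.97 and 1.05, the latter past the 2-fold limit.

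**Figure D3:**
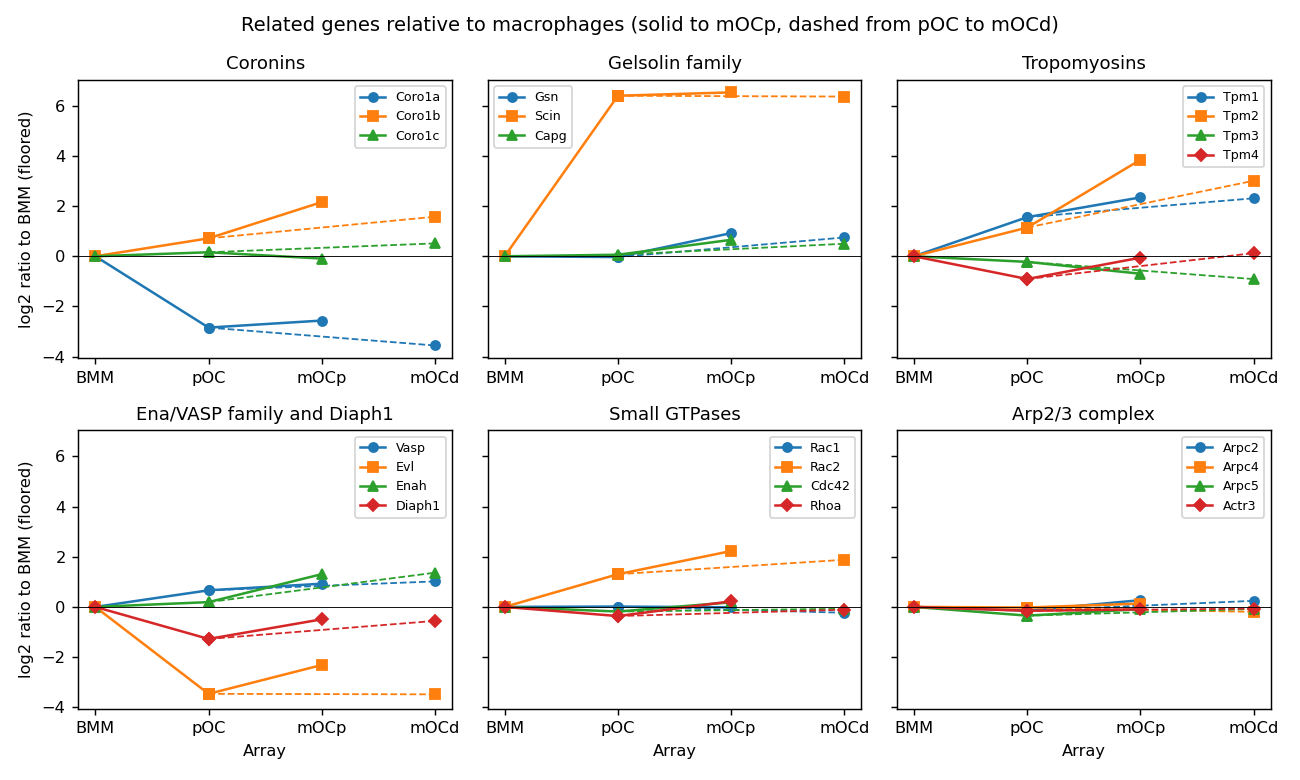
Log2 ratio of each gene to its own BMM intensity, values under the floor set to it, for 6 groups of related genes (1 array per stage, so no error bars). Solid lines run through pOC to mOCp and dashed lines from pOC to mOCd. Scin rises to 6.40 in pOC while Gsn and Capg stay within 1 log2 unit, Coro1a falls while Coro1b rises, and Rac2 rises while the other small GTPase genes stay near 0.

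The Ena/VASP proteins and formins elongate unbranched filaments, and in pOC against BMM 2 of 3 of their bright genes were lower and none higher (all named genes, 13.2% and 11.1%). Vasp read 434.8 for BMM, 687.9 for pOC, 824.8 for mOCp and 879.5 for mOCd, and passed the limit in none of the 5 comparisons. Its relative Evl had the largest fall of the listed genes, from 397.0 in BMM to 36.0 in pOC, 11.03-fold. It read 79.9 in mOCp and 35.5 in mOCd, which made it the only listed gene counted as lower in pOC than BMM and higher in mOCp than pOC, and it was 2.25-fold lower in mOCd than in mOCp. The other bright Evl probe set read 247.4, 41.3, 74.5 and 33.2, the same order, and a dim one was 1.58-fold lower in pOC. Macrophage markers with the same order of pOC, mOCp and mOCd were C1qa (3372.4, 41.9, 108.9 and 38.9), C1qb (4605.6, 146.7, 368.7 and 95.7), Cx3cr1 and Mertk. The others had a different order. Adgre1, Cd14, Cd68 and Csf1r were higher in mOCd than in pOC, and Mrc1 and Fcgr1 were lower in mOCp than in pOC. The part of macrophage markers in the Evl values was not tested. Enah, encoding Mena, was under the floor in BMM and pOC and read 31.4 in mOCp and 32.7 in mOCd, above the floor but below the bright limit. Diaph1, the formin mDia1, fell 2.42-fold from 694.9 in BMM to 286.9 in pOC, and read 493.7 in mOCp and 472.3 in mOCd.

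Of the 4 small GTPases, which set where actin assembles, Rac2 alone was counted. It was higher in pOC and in mOCp than in BMM, where 11.1% and 16.9% of all named genes were. Rac2, the form of blood cells, read 902.8 for BMM, 2227.6 for pOC, 4225.5 for mOCp and 3319.1 for mOCd. It rose 2.47-fold to pOC and was 4.68-fold above BMM in mOCp, and its other probe set gave log2 ratios of 1.59 and 3.06. Neutrophil markers also had their highest sum in mOCp, 1886.1, mostly from S100a8, which read 146.4, 380.1, 1112.6 and 506.8. Lcn2, Camp, Ltf and Ngp were also higher in mOCp than in pOC. S100a9 read 203.0 in pOC and 208.5 in mOCp, and Mpo and Elane were lower in mOCp. The part of neutrophil markers in the Rac2 values was not tested. Rac1, the widely expressed form, read 3218.1, 3248.6, 3183.6 and 2738.1. Cdc42 read 4563.8, 4017.9, 5185.8 and 4334.0, and Rhoa read 2298.3, 1785.5, 2680.6 and 2127.4. The highest of the 4 arrays lay about 1.5-fold or less above the lowest for each of Rac1, Cdc42 and Rhoa.

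Tropomyosins coat filaments and affect which proteins can bind them, and 1 of 3 bright enough was higher in pOC than in BMM and none lower (all named genes, 11.1% and 13.2%). Tpm1 read 190.4 for BMM, 560.8 for pOC, 968.1 for mOCp and 943.8 for mOCd, and rose 2.94-fold to pOC. Its other bright probe set rose 4.53-fold. Tpm2 was dim until the last step, at 23.8, 52.6, 342.4 and 191.7. It was 6.51-fold higher in mOCp and 3.64-fold higher in mOCd than in pOC. Another Tpm2 probe set gave a log2 ratio of 2.10 in mOCp against pOC, and the lowest of the 3 others, near the floor, gave 0.13. Stromal and smooth muscle cells also make these proteins, and 2, 5, 3 and 6 of their 14 markers exceeded the floor on the 4 arrays, with summed intensities of 161.3, 353.9, 195.9 and 307.2. Tagln and Cnn1 lay under the floor throughout, Acta2 read 85.1, 40.8, 51.3 and 61.2, Dcn read 8.8, 196.1, 55.0 and 127.3, and Myh11 exceeded the floor in mOCd alone, at 23.3. The part of such cells in the tropomyosin values was not tested.

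Tpm4 read 2190.0 for BMM, 1169.1 for pOC, 2108.6 for mOCp and 2388.9 for mOCd. It was lowest in pOC, and 2.04-fold higher in mOCd than there. Tpm3 ran the other way, at 3391.8, 2906.4, 2094.1 and 1806.8, with no ratio of its representative past the limit. Other Tpm3 probe sets were lower by more. A bright one read 1491.9, 544.0, 212.9 and 181.7, and the lowest log2 ratio of mOCd to BMM among them was −3.24. The tropomyosin genes each give many transcript forms, and which form a probe set reports was not tested.

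**Figure D4:**
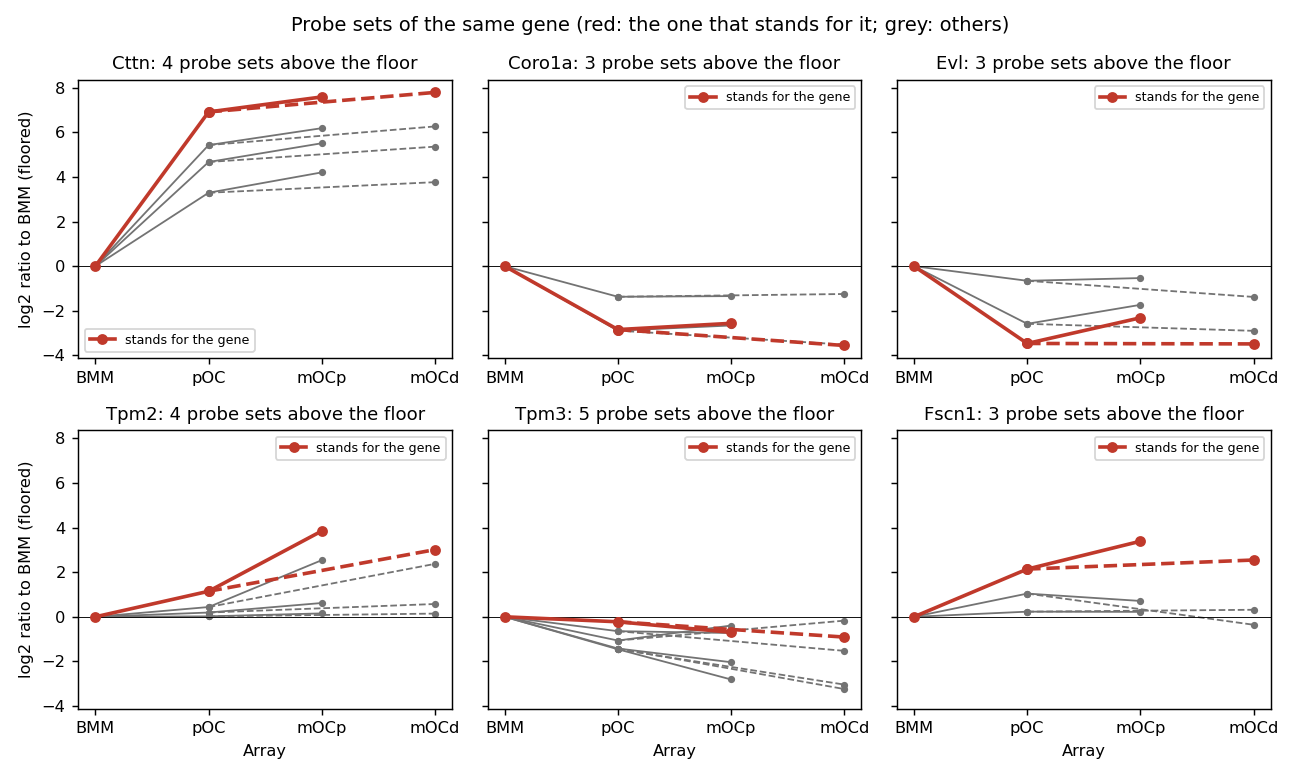
Log2 ratio to BMM of every probe set above the floor for 6 genes, with values under the floor set to it (red, the probe set that represents the gene; grey, the others; dashed lines run from pOC to mOCd). All Cttn probe sets rise and all Coro1a probe sets fall, whereas Fscn1, Tpm2 and Tpm3 have probe sets that differ in size or direction.

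Of the genes, 15 of 43 (34.9%) had their lowest value in pOC and 1 had its highest there. Over all named genes above the floor, 19.8% were lowest and 23.8% highest in pOC. Highest values lay in mOCp for 18 listed genes (41.9%), in mOCd for 14 (32.6%) and in BMM for 10 (23.3%). Over all named genes above the floor these shares were 21.6%, 25.4% and 29.2%. Genes that were lowest in pOC included Ptk2b, Zyx, Flna, Lcp1, Wipf1, Diaph1, Wdr1 and Tpm4. With spike-in scaling 9 of 43 genes were lowest in pOC, where 13.9% of all named genes above the floor were. Under the other scalings 14 to 16 were, where 20.0% to 21.0% of all named genes were.

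Beyond the list, 160 further genes of the same processes were counted, of which 151 had a probe set. In pOC against BMM, 20 of 115 were higher and 31 lower, where 11.1% and 13.2% of all named genes were. In mOCp against pOC 12 of 111 were higher and 2 lower (8.8% and 11.4%), and in mOCd against pOC 18 of 109 and 3 (10.8% and 12.3%). In mOCd against mOCp 7 of 111 were higher and 5 lower (2.15% and 2.55%), and in mOCp against BMM 27 of 117 and 22 (16.9% and 19.4%). Their median log2 ratio was −0.15 in pOC against BMM and 0.37 in mOCp against pOC, beside 0.09 and 0.01 for all named genes. The list counts for pOC that follow are to be read against the same 11.1% higher and 13.2% lower.

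Genes upstream of actin assembly rose and fell side by side in pOC. Among exchange factors, GTPase-activating proteins and their partners 6 of 26 were higher and 9 lower. Rhou, an atypical small GTPase, read 9.3 in BMM and 200.2 in pOC, at least 15.76-fold higher, and Dock5, an exchange factor for Rac, rose 8.06-fold from 55.1 to 443.9. Dock2, the Rac exchange factor of leukocytes, fell 6.01-fold from 757.8 to 126.1. In the list of WAVE complex and other Arp2/3 genes 2 of 11 were higher and 1 lower. Nckap1, a WAVE subunit, rose from 15.6 to 162.1, which is 10.39-fold. Among other formins 4 of 8 were higher, such as Fhod3 at 6.0 and 97.4, at least 7.67-fold, and Fmnl2 at 88.5 and 339.1, and Diaph2 was lower at 390.5 and 65.2.

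Crosslinkers and membrane linkers had 7 of 17 lower and none higher in pOC. Lsp1, an actin-binding protein of leukocytes, fell 14.61-fold from 1013.9 to 69.4, and Marcks, which ties actin to the membrane, fell 6.56-fold from 1412.0 to 215.2. Genes of actin itself, monomer binding, capping and turnover had 6 of 20 lower and none higher, among them Cap1 at 1564.8 and 434.6 and Cotl1 at 2461.9 and 755.9. Adhesion adaptors had 4 of 22 higher and 6 lower. Pstpip1 rose 6.66-fold from 256.8 to 1711.3, Bcar1, the Src substrate p130Cas, was at least 6.98-fold higher at 88.7 after 6.3, and Lpxn, which encodes leupaxin, a relative of paxillin, fell 3.73-fold from 1683.5 to 451.3.

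Podosome integrins and substrates had 4 of 11 higher and 1 lower in pOC. Itgb3, the beta 3 subunit of the vitronectin receptor on which the sealing zone rests, read 1.0 for BMM, 92.1 for pOC, 480.8 for mOCp and 2939.3 for mOCd. It was at least 7.25-fold higher in pOC and rose 5.22-fold from there to mOCp. Its partner Itgav read 1592.8, 3992.6, 4420.7 and 5999.5. Mmp14, a membrane protease of podosomes, read 27.4 in BMM and 2007.7 in pOC, 73.27-fold higher. In mOCp against pOC, Rhoc rose 4.02-fold from 116.1 to 467.0 after 372.7 in BMM, Pls1, a plastin, rose 4.74-fold from 17.6 to 83.4, and Fhod1, a formin, fell 2.08-fold from 169.4 to 81.6.

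**Figure D5:**
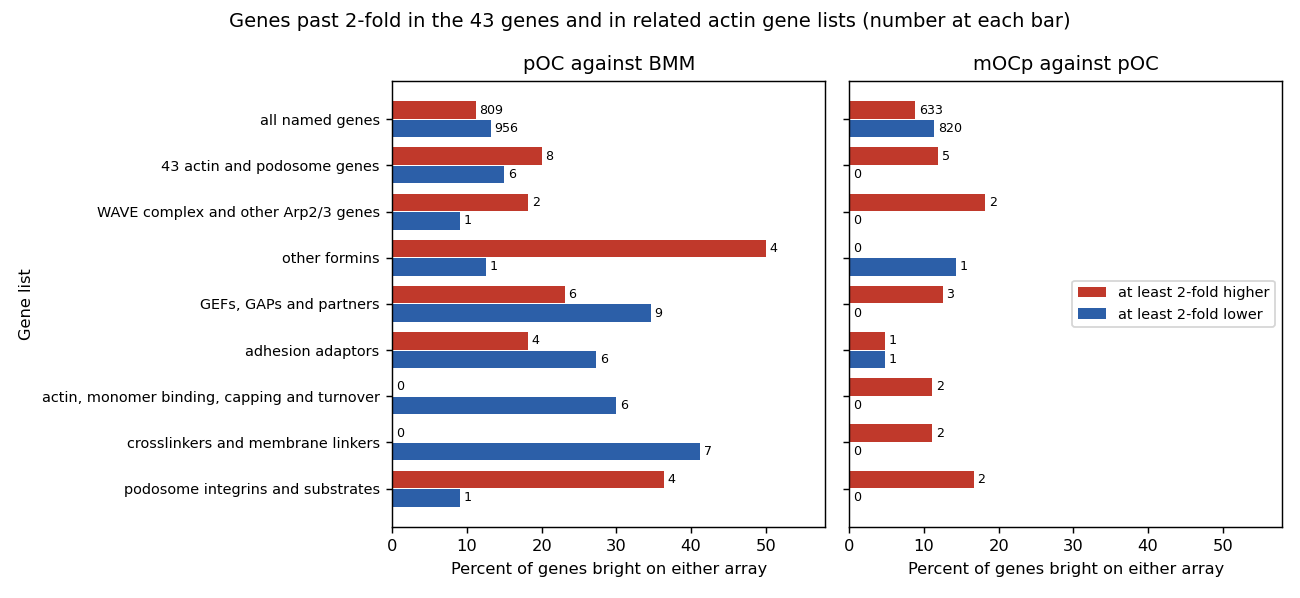
Percent of the genes bright on either array that were at least 2-fold higher (red) or lower (blue) in pOC against BMM and in mOCp against pOC, for all named genes, the 43 genes and 7 related lists, with the number of genes at each bar. In pOC against BMM crosslinkers and membrane linkers have 7 lower and 0 higher, and in mOCp against pOC the 43 genes have 5 higher and 0 lower.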

How the data were processed

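Gene expression was measured in 4 groups (BMM, pOC, mOCp, mOCd), 1 array each, on Affymetrix arrays of 45101 probe sets, 64 of them controls. The deposited values are linear intensities per probe set, made by the authors with MAS5 per the submitters' processing notes; the version is not given in the sources used here, nor is the genome build. MAS5 subtracts a mismatch background, so dim values are imprecise, and the common trimmed mean removes differences in total mRNA. Bacterial spike-in controls had mean log2 intensities of 7.33, 7.46, 7.59 and 7.93 in the order BMM, pOC, mOCp and mOCd. The log2 ratio of 3′ to 5′ control probe sets of the transferrin receptor was 1.7 in mOCd and 0.84 to 1.01 on the other arrays, whereas that of actin was 0.28 in mOCd (0.16 to 0.29 elsewhere) and that of Gapdh −0.34 (−0.43 to −0.29); their part in the mOCd values was not tested. With 4 arrays, precision is limited by their number.

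Values under the 50th percentile of an array's non-control probe sets were set to it (the floor). Probe sets were named through an annotation dated 2016 (34945 with 1 symbol, 932 with several, 9160 not listed), and those with several symbols named no gene. All 43 genes matched RefSeq by Entrez identifier and 0 symbols changed. A gene was represented by its probe set with the highest mean log2 of the floored values, and counted past 2-fold if the higher of the 2 intensities reached the 75th percentile of its array. No test is possible with 1 array per group. The genes and lists were chosen with earlier results of these data known. All listed genes are named. Related genes named were picked from those with the largest ratios, at most 4 per list and comparison, in pOC against BMM and mOCp against pOC. Not all of those are named, and some left out had larger ratios than some named. Mmp9, at least 513.9-fold higher in pOC than in BMM, is an example. Promoters came from a RefSeq table of GRCm38.p6. Counting was tested on simulated data. Alternatives covered 4 scalings, the floor, the choice of probe set, the brightness limit and the fold limit. Python 3.11.15, pandas 2.3.3, numpy 2.4.6 and, for cyclic loess, limma 3.58.1 in R 4.3.3 were used.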

Additional observations from a re-analysis of the deposited data

How the results depend on the processing

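The median log2 ratio of the listed genes from pOC to mOCp stayed between 0.30 and 0.43 and that of pOC against BMM between −0.22 and −0.03 under every alternative that gave a value. From pOC to mOCd it ran from −0.09 with spike-in scaling to 0.49. In mOCd against mOCp it was −0.04, but 0.02 with quantile normalization and 0.01 with cyclic loess, and in mOCp against BMM it was 0.28, but −0.11 and −0.08 with those. Replicate spread being unknown, these shifts were judged against the SD between probe sets.

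Spike-in scaling gave 3 of 40 higher and 3 lower in mOCd against pOC (7 and 0 as deposited), beside 378 and 1882 of 7231 named genes. In mOCd against mOCp it gave 0 of 42 higher and 5 lower (1 and 2), beside 58 and 420 of 6915. Median scaling gave 6 of 40 higher and 7 lower in pOC against BMM (8 and 6), beside 589 and 1216 of 7260 named genes. It gave 1 of 40 lower in mOCd against pOC, beside 1090 of 7231. In mOCd against mOCp it gave 0 of 42 higher, beside 108 of 6915. The mean over probe sets left 0 of 37 higher and 1 lower in mOCd against mOCp, beside 115 and 133 of 5111 named genes. Without suffixed probe sets (_a_at, _s_at, _x_at) 40 genes remained. In mOCp against pOC 3 of the 31 bright enough were higher, beside 531 of 5762 named genes. In mOCd against mOCp 0 of 32 were higher and 0 lower, beside 151 and 152 of 5538. In mOCp against BMM 2 of 31 were lower, beside 1175 of 6000. A 1.5-fold limit gave 11 of 40 lower in pOC against BMM, and 19 of 42 higher and 1 lower in mOCp against pOC. It gave 15 of 40 and 3 in mOCd against pOC, 6 of 42 and 5 in mOCd against mOCp, and 7 of 42 lower in mOCp against BMM. The numbers over all named genes at that limit are given below. Moving the floor to the 40th or 60th percentile changed no count of the listed genes.

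Over all named genes, spike-in scaling moved the median from 0.01 to −0.46 in mOCd against pOC and from 0.01 to −0.34 in mOCd against mOCp, and the numbers higher and lower from 779 and 886 to 378 and 1882, and from 149 and 176 to 58 and 420. It gave 492 and 1014 in mOCp against pOC (633 and 820) and 965 and 1944 in mOCp against BMM (1258 and 1445). Median scaling gave 589 and 1216 in pOC against BMM (809 and 956), 108 and 230 in mOCd against mOCp, and 998 and 1859 in mOCp against BMM, and lowered the medians by 0.03 to 0.22. Without the brightness limit 319 and 331 passed in mOCd against mOCp. A 1.5-fold limit gave 1602 and 1615, 1421 and 1611, 1608 and 1741, 634 and 526, and 1966 and 2284, for pOC against BMM, then mOCp against pOC, then mOCd against pOC, then mOCd against mOCp and last mOCp against BMM. Bright enough in that order were 7260, 7195, 7231, 6915 and 7465 named genes, also under spike-in and median scaling.

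Of 45 counted values of single genes, 21 were counted under every alternative that gave a value and 24 were lost under at least 1. Fscn1 in mOCp against pOC reversed to −0.33 without suffixed probe sets and with the probe set chosen on values without the floor, an alternative added after seeing the data. Without suffixed probe sets, log2 ratios in pOC against BMM shrank to −1.37 for Coro1a and −0.66 for Evl, and in mOCp against pOC to 0.13 for Tpm2 and 0.12 for Evl. Vcl and Actn1 in pOC against BMM were 0.96 under median scaling. In mOCd against pOC, spike-in scaling left Lcp1 at 0.63, Tpm4 at 0.56, Sh3pxd2a at 0.74 and Vcl at 0.99. In mOCd against mOCp, the mean over probe sets left Dnm2 at −0.44, Wasl at 0.67 and Evl at −0.77. The cause was not tested.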
